A study of Mus musculus with 16 samples.

Results

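Transcripts of 10 genes of the germ line were followed across mouse pluripotent stem cell cultures: Dazl, Ddx4, Mael, Sycp3, Hormad1, Asz1, Stk31, Slc25a31, Tex101 and Rbmxl2. They are 10 of the 34042 genes in the count table. The choice was by name, as germline genes that are known to be silenced by promoter DNA methylation in most somatic cells. It was made with earlier results of these data known. RNA was measured in 16 bulk sequencing libraries, and DNA methylation was not analysed here. In 2iL medium, 4 libraries came from naive embryonic stem cells (ES), all of line E14IV-C, at passages 12, 13, 15 and 20. In A3XR medium, 6 came from formative stem cells (FS), with line 5ar1 at passages 10, 12 and 14 and line 5ar3 at passages 4, 5 and 12. Epiblast stem cells (EpiSCs) were sampled in AF medium as line AF32 at passages 13, 14 and 15 (3 libraries), and in AFX medium as line AFX6 at passages 5, 8 and 12 (3 libraries). The labels name no genetic modification, treatment or drug beyond these media. 2iL combines inhibitors of MEK and GSK3 with the cytokine LIF, AF holds activin and FGF2, AFX adds a Wnt pathway inhibitor, and A3XR holds activin with Wnt and retinoic acid receptor inhibitors. Outside FS each group was 1 line, so line and medium cannot be told apart, and replicates were passages of a line, so p-values measure only the spread between such libraries.

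Germline genes encode the proteins that protect and recombine the genome of germ cells. Many have CpG-rich promoters that are methylated when the epiblast is primed for differentiation and are cleared of methylation again in primordial germ cells. Before that methylation is laid down, the PRC1.6 complex, whose subunits MGA and MAX bind E-box sequences and whose subunit E2F6 binds E2F sites, holds many of them down. ES cells in 2iL are known for low DNA methylation across the genome, whereas EpiSCs are known for high methylation.

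Total counts were 22069338 to 33290250 per library. The mitochondrial rRNA gene mt-Rnr2 took 9.96% to 38.1% of a library, with the highest share in the passage 12 ES library and 17.7% to 18.97% in the other 3 ES libraries. Levels are given as CPM, the count rate of a gene relative to the library total after TMM scaling, which allows for such shares. All 7 naive pluripotency markers were higher in ES than in each other group by the edgeR quasi-likelihood test, and all 4 measured epiblast markers were lower. Markers of other cell types were low in ES, with a summed level of 3.32 to 4.25 CPM over 7 primitive endoderm genes, 6.19 to 8.29 CPM over 6 trophoblast genes and 5.32 to 5.47 CPM over 8 fibroblast genes. Elf5, a trophoblast marker, and Dcn, a fibroblast marker, were at 0 in all 4 ES libraries.

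The stretch from 250 to 1 bases before the start site was read from RefSeq (GRCm38.p6) for all 10 genes, because most of these genes were higher in ES together and the PRC1.6 subunits are known to read defined DNA letters. The E-box CACGTG, which reads the same on both strands, was present in 7 of 10 promoters, against 6.05% of all 27025 RefSeq promoters of the same length and 9.58% of the 9320 CpG-rich ones. The E2F-type motif TCCCGC, searched on both strands and so also as GCGGGA, was present in 5 of 10, against 16.9% of all promoters and 37.4% of the CpG-rich ones. No match of one motif overlapped a match of the other in these promoters. The 5 promoters with both motifs and the promoter of Dazl, which had neither, are shown 5′ to 3′ on the strand of the gene, with both motifs in capitals.
Ddx4: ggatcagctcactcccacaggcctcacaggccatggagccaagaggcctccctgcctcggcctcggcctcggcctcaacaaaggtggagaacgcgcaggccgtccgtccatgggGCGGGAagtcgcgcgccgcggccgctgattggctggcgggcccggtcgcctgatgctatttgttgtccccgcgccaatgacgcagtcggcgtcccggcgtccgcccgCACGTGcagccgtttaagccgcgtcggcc
Mael: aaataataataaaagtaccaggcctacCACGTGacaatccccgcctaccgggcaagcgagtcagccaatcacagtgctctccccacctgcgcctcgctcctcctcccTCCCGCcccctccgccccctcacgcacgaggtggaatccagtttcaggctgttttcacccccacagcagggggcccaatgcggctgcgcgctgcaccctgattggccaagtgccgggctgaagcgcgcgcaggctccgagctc
Sycp3: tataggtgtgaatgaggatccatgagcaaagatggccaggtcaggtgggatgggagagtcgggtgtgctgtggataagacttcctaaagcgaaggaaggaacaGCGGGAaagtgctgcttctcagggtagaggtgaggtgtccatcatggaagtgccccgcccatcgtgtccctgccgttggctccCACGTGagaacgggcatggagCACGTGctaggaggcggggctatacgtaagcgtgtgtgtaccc
Hormad1: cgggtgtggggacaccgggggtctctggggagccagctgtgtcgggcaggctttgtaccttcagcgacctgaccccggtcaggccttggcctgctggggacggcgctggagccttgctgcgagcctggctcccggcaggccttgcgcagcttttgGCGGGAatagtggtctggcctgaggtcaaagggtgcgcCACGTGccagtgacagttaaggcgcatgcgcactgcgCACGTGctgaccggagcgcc
Rbmxl2: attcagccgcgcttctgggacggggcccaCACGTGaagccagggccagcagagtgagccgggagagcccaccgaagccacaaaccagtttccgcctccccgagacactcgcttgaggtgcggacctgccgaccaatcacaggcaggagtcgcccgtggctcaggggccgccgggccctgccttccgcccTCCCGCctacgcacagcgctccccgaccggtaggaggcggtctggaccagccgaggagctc
Dazl: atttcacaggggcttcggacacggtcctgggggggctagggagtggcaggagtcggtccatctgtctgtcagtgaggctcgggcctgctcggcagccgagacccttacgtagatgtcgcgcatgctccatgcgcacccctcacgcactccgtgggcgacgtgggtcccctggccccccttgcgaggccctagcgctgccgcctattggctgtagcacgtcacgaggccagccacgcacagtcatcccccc

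These windows lie at chr13:112652311-112652560 on the minus strand for Ddx4, chr1:166238745-166238994 on the minus strand for Mael, chr10:88459337-88459586 on the plus strand for Sycp3, chr3:95559427-95559676 on the plus strand for Hormad1, chr7:107209195-107209444 on the plus strand for Rbmxl2 and chr17:50293621-50293870 on the minus strand for Dazl. Counted from the start site, the E-box began at base -29 in Ddx4, -223 in Mael, -64 and -43 in Sycp3, -57 and -20 in Hormad1, and -221 in Rbmxl2. It was also present at -55 in Stk31 and -93 in Slc25a31. The E2F-type motif began at -136 in Ddx4, -143 in Mael, -147 in Sycp3, -95 in Hormad1 and -61 in Rbmxl2. Dazl, Asz1 and Tex101 had neither motif in this window. All 10 promoters had a CpG content of at least 0.6 of that expected from their C and G content, against 34.5% of all promoters. The median number of CpGs was 18.5 against 6. For the 11601 promoters of genes that passed the low-count filter, the share was 64.5% and the median 15. All 16 promoters of PRC1.6 and histone methylation repressor genes also reached 0.6. The GENCODE annotation starts Dazl, Ddx4, Mael, Sycp3, Slc25a31 and Tex101 upstream of the RefSeq start and Stk31 downstream of it, so the windows depend on the start chosen. A match is a description of letters and does not show that a factor binds there.

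**Figure D1:**
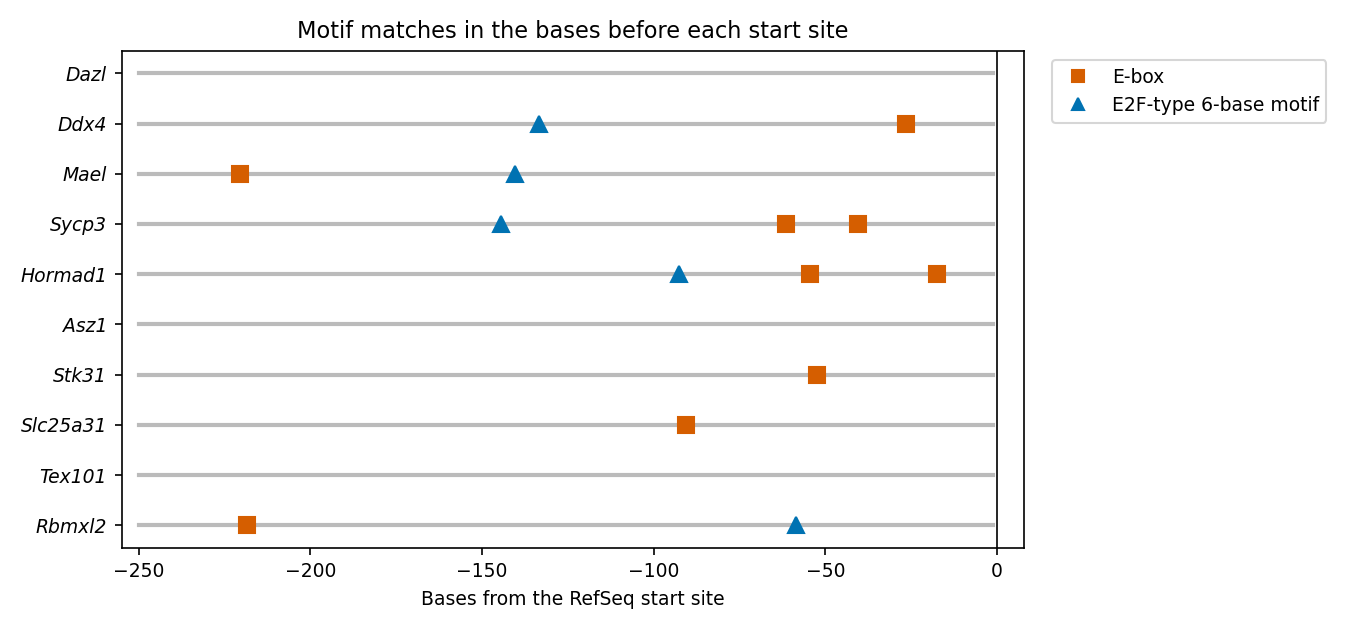
Position of E-box (squares) and E2F-type (triangles) matches in the window before each RefSeq start site, 1 line per gene, with the x axis in bases. E-boxes lie in 7 of the 10 windows and E2F-type matches in 5, and the lines of Dazl, Asz1 and Tex101 are empty.

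Among other genes of the germ line, an E-box was present in 5 of 15 promoters of piRNA and nuage genes, 3 of 21 of meiotic chromosome genes and 0 of 9 of late spermatid genes. The E2F-type motif was present in 1 of 15, 10 of 21 and 0 of 9 of these promoters. Its share in the meiotic list, 47.6%, was thus near that of the 10 germline genes. Across the whole table, 155 genes were at 1 CPM or more in every ES library and at most 0.1 CPM in every other library, and 4 of these were among the 10 germline genes. Of the others, 76 had a RefSeq promoter, and 7.89% of these held an E-box, with a median CpG content of 0.362 of that expected. These 76 genes were picked by their values in the same libraries and were not tested.

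Nearly all counts of the germline genes came from ES libraries. Summed over the 10 genes, the level was 106.5 to 160 CPM in ES, 0.442 to 1.66 CPM in FS, 0.490 to 1.49 CPM in AF EpiSCs and 0.214 to 0.271 CPM in AFX EpiSCs. The 12 libraries outside ES held 274 counts of these genes together, of which 218 were Sycp3 and 29 Ddx4, against 11188 counts in the 4 ES libraries. Of the 120 values outside ES (10 genes in 12 libraries), 82 were 0, 26 were 1 to 3 counts and 12 were above 3. In bulk RNA, fewer expressing cells and less RNA per cell cannot be told apart.

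**Figure D2:**
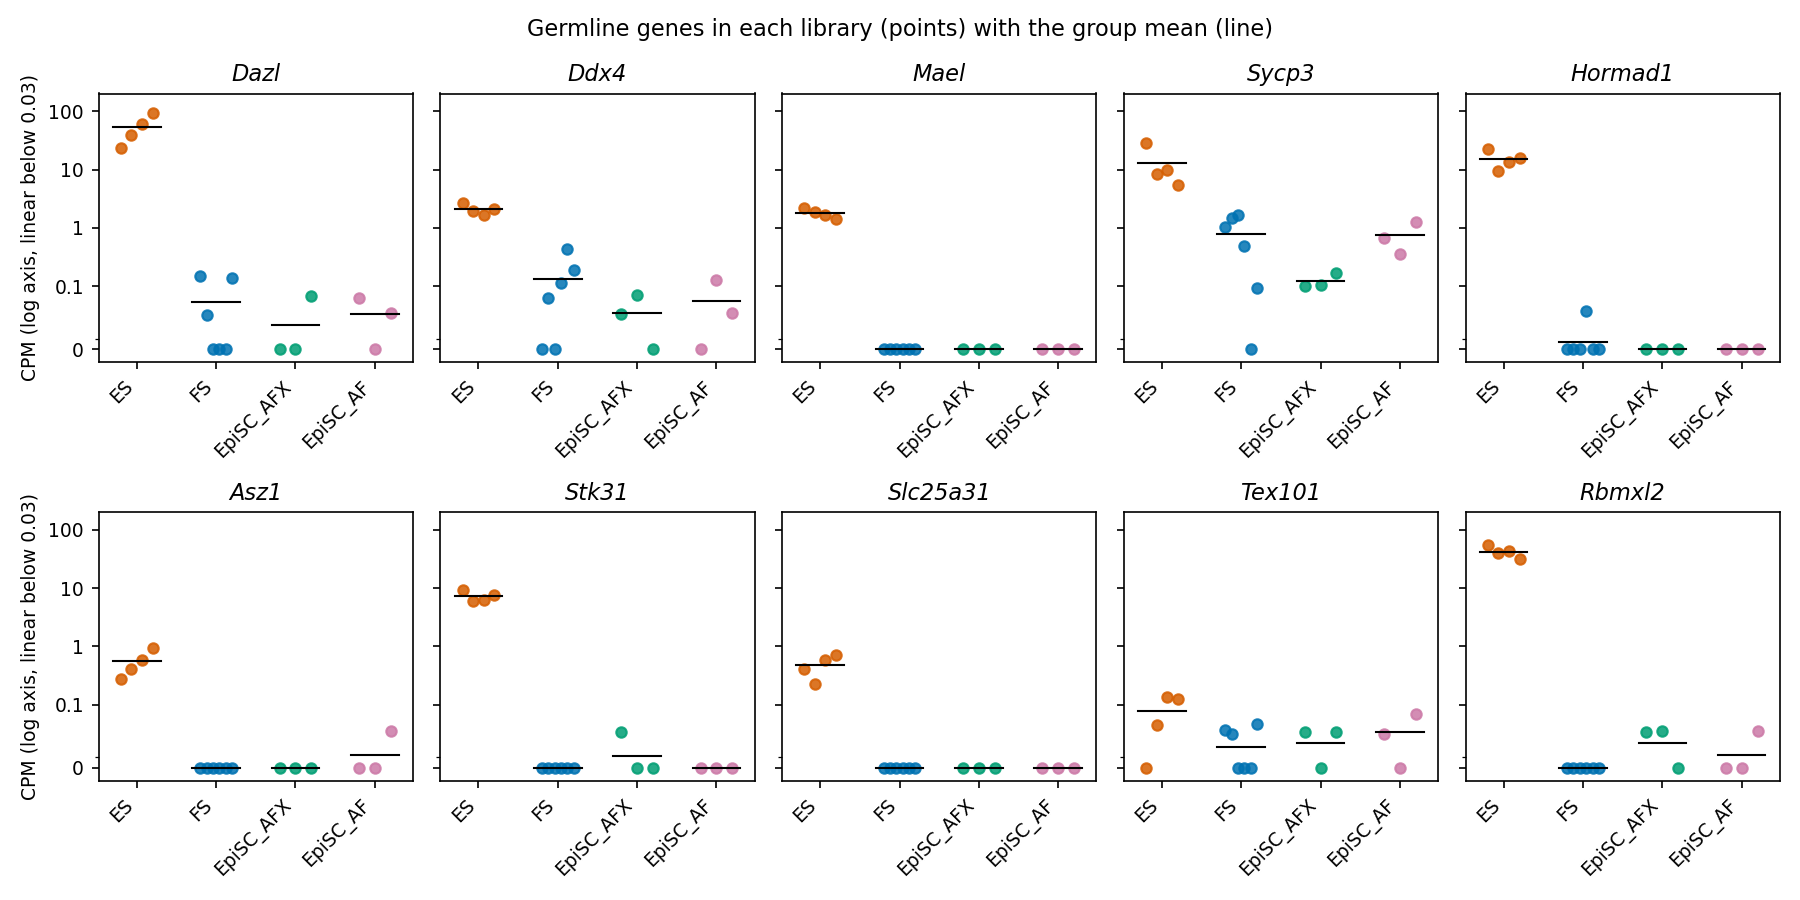
CPM of each of the 10 germline genes, with 1 point per library and a line at the group mean, on a log axis that is linear below 0.03 CPM. ES points stand above those of the other 3 groups for every gene except Tex101, and Sycp3 and Ddx4 have the most points above 0 outside ES.

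Of the 10 genes, 7 passed the low-count filter and were tested; Asz1, Slc25a31 and Tex101 did not. All 7 were called higher in ES than in FS at an edgeR adjusted p under 0.05, where 29.9% of the 18555 tested genes were (32.9% were lower). All 7 were also higher in ES than in AF EpiSCs, where 27.0% were (29.7% lower), and than in AFX EpiSCs, where 26.2% were (28.5% lower). In all 3 comparisons each of the 7 was higher in every ES library than in every library of the other group, which held for 22.0%, 29.8% and 28.5% of tested genes. These 7 passed the filter mainly through their ES libraries, so their count carries no weight of its own. The 3 comparisons share the ES libraries and are therefore not independent.

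The RNA-binding and helicase genes come first. Dazl encodes an RNA-binding protein that controls translation in germ cells, and its mean ES level of 53.8 ± 30.7 CPM (SD, n = 4) was the highest of the set, within its spread of Rbmxl2 at 42.1 ± 9.43. Its ES levels were 23.0, 38.7, 59.4 and 94.1 CPM at passages 12, 13, 15 and 20. FS line 5ar1 held 4, 1 and 0 counts of Dazl, line 5ar3 (passages 12, 4 and 5) 0, 0 and 3, AF EpiSCs 2, 0 and 1, and AFX EpiSCs 0, 0 and 2. No library outside ES came near the lowest ES library, which held 333 counts. The fitted log2 difference of Dazl was 9.95 (SE 0.58) from FS, 10.47 (SE 0.83) from AF EpiSCs and 10.93 (SE 0.86) from AFX EpiSCs, with edgeR adjusted p of 1.47e-10, 1.08e-08 and 1.04e-08.

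Ddx4 encodes Vasa, the DEAD-box RNA helicase of germ granules. Its ES levels were low and even, at 2.63, 1.94, 1.64 and 2.08 CPM. Outside ES, Ddx4 gave 0, 2 and 0 counts in line 5ar1, 3, 12 and 4 in line 5ar3, 0, 4 and 1 in AF EpiSCs, and 1, 2 and 0 in AFX EpiSCs. The ES range of 36 to 49 counts stayed above the highest of these, the 12 counts of line 5ar3 at passage 4. The log2 difference was 3.93 (SE 0.69) from FS, 5.10 (SE 1.01) from AF EpiSCs and 5.72 (SE 1.09) from AFX EpiSCs, with edgeR adjusted p of 8.45e-05, 0.000297 and 0.000198.

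Rbmxl2 is an intronless, testis-specific relative of the X-linked splicing regulator Rbmx. It was at 54.4, 39.5, 42.8 and 31.7 CPM in ES and had no count in any FS library. AF EpiSCs gave 0, 0 and 1 counts and AFX EpiSCs 1, 1 and 0, against 745 to 939 counts in ES. ES was at least 2208-fold higher than FS, from a floor of 3 counts over the 6 FS libraries, the rule used for each "at least" here. The ratio was 3666 to AF EpiSCs (95% exact interval 658 to 144850) and 1776 to AFX EpiSCs (491 to 14671), with intervals that cover counting error only. The edgeR adjusted p of Rbmxl2 against FS was 8.53e-11. Per kilobase of exon, Rbmxl2 had the highest mean level in ES, at 28.6 ± 6.41 CPM (SD, n = 4), above Dazl at 14.1 ± 8.04.

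The next group acts on piRNAs, the small RNAs that silence transposons, and on the granules, or nuage, where they are made. Mael, a nuage protein of the piRNA pathway, was at 2.21, 1.90, 1.69 and 1.45 CPM in ES and had no count in any of the other 12 libraries. ES was at least 95.7-fold higher than FS, 53.0-fold than AF EpiSCs and 51.3-fold than AFX EpiSCs, and the edgeR adjusted p of Mael against FS was 5.11e-06. Stk31, a kinase-like protein with a Tudor domain, was at 9.40, 6.05, 6.24 and 7.48 CPM in ES. A single count in the passage 12 AFX library was its only count elsewhere. ES exceeded FS at least 385-fold and AF EpiSCs at least 213-fold, and the edgeR adjusted p of Stk31 against FS was 4.88e-08.

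Asz1 (also Gasz), a scaffold of germ granules that links them to mitochondria, did not pass the filter. Its ES libraries held 4, 9, 13 and 22 counts, and only 1 library elsewhere, the AF culture at passage 15, held any, with 1 count. ES was at least 31.7-fold higher than FS and at least 17.0-fold higher than AFX EpiSCs. Without the filter, over 32039 genes, its edgeR adjusted p was 1.15e-05 against FS, 0.000933 against AF EpiSCs and 0.000337 against AFX EpiSCs.

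Of the meiotic chromosome proteins, Hormad1, which marks unsynapsed chromosome axes, was at 22.6, 9.30, 13.7 and 15.99 CPM in ES. A single count in line 5ar3 at passage 12 was the only one outside ES. The ES to FS ratio was 2394 (95% exact interval 429 to 94637), and ES was at least 442-fold higher than AF EpiSCs and 428-fold higher than AFX EpiSCs. The edgeR adjusted p of Hormad1 against FS was 8.15e-10. Of its 50-base stretches of exon, 22.9% occur also in the gene Gm15529, so reads could be split between them. Gm15529 held 55 to 86 counts in each ES library and 0 or 1 in each other library.

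Sycp3, a structural protein of the axes of the synaptonemal complex, was the exception outside ES. Its ES levels were 28.2, 8.49, 9.70 and 5.44 CPM, so the passage 12 library stood above the other 3; without it the ES mean was 7.88 CPM against 12.96 with it. Line 5ar1 held 28, 47 and 49 counts at passages 10, 12 and 14. Line 5ar3 held 13, 0 and 2 counts at passages 12, 4 and 5, AF EpiSCs 21, 11 and 36 at passages 13, 14 and 15, and AFX EpiSCs 3, 3 and 5 at passages 12, 5 and 8. All 3 AF libraries and all 3 of line 5ar1 thus had counts well above those of Mael or Stk31, while line 5ar3 ranged from none to 13. The log2 difference from ES was 3.98 (SE 0.68) for FS, 4.07 (SE 0.91) for AF EpiSCs and 6.62 (SE 1.11) for AFX EpiSCs, with edgeR adjusted p of 7.08e-05, 0.00102 and 7.06e-05.

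Of the exon bases of Sycp3, 52.2% are also exon of Chpt1 on the opposite strand, and the strand setting of the counting is not given in the sources used here. Chpt1, an enzyme of phosphatidylcholine synthesis, was at 8.999 ± 1.216 CPM in line 5ar1 (SD, n = 3), 9.05 ± 0.36 in line 5ar3, 8.79 ± 0.61 in AF EpiSCs and 9.01 ± 0.97 in AFX EpiSCs. In ES it was at 19.7 ± 3.71 CPM (SD, n = 4). Levels of Chpt1 thus lay close together outside ES, where those of Sycp3 ranged from 0 to 49 counts. Its higher level in ES moves with Sycp3, and its part in that difference was not tested.

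The last pair are genes of the testis. Slc25a31 encodes the testis form of the mitochondrial ADP/ATP carrier, and Tex101 a surface glycoprotein of germ cells. Slc25a31 held 6, 5, 13 and 17 counts in ES and none in any other library. ES was at least 27.1-fold higher than FS, and without the filter its edgeR adjusted p was 3.2e-05 against FS, 0.000592 against AF EpiSCs and 0.000676 against AFX EpiSCs. Tex101 held 0, 1, 3 and 3 counts in ES, and 0 to 2 counts in each library elsewhere. Its groups overlap, and without the filter its edgeR adjusted p was 0.15 against FS, 0.464 against AF EpiSCs and 0.339 against AFX EpiSCs. At this depth no difference was detectable for Tex101.

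By level per kilobase of exon in ES, the order was Rbmxl2, Dazl, Sycp3 (10.3 ± 8.16 CPM), Hormad1 (8.90 ± 3.21), Stk31 (2.25 ± 0.48), Mael (1.04 ± 0.19), Ddx4 (0.688 ± 0.137), Slc25a31 (0.230 ± 0.102), Asz1 (0.195 ± 0.101) and Tex101 (0.0467 ± 0.0398; all SD, n = 4). Neighbours in this order from Dazl to Hormad1, and Slc25a31 and Asz1, lie within 1 SD of each other, and the libraries of Rbmxl2 overlap those of Dazl and the libraries of Mael those of Ddx4. The 4 genes from Rbmxl2 to Hormad1 were above each of the others in every ES library.

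The ES libraries also differed by passage for some genes. Dazl rose at each step, 4.09-fold from passage 12 to passage 20, and the same order held on total counts, at 6.24-fold. Such a rise at each step was seen for 6.75% of tested genes, and a rise at each step of at least 4-fold for 0.938%; on total counts these shares were 13.2% and 1.76%. Asz1 moved likewise, at 0.276, 0.407, 0.592 and 0.935 CPM, from few counts. Sycp3 was lowest at passage 20, at 0.193 of its passage 12 level (0.295 on total counts), without falling at each step. Mael fell at each step on the TMM scale, to 0.654 of its passage 12 level, but not on total counts, where the fold was 0.998; 6.60% of tested genes fell at each step on the TMM scale and 2.19% on total counts. The other members moved neither up nor down throughout. The passage 12 library is also the one with the mt-Rnr2 share of 38.1%, and with 1 library per passage there is no replicate check and no test of a trend.

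Among the other germline genes looked at, 3 of 12 tested piRNA and nuage genes rose at each step over the ES passages. Fkbp6, a co-chaperone of piRNA loading, was at 4.15, 8.08, 19.5 and 36.1 CPM. Gpat2, an acyltransferase-like piRNA factor, was at 16.5, 26.4, 37.3 and 37.3 CPM, and the third was Tdrd7. Of 20 tested meiotic genes, 1 rose at each step, the cohesin gene Smc1b, at 3.11, 3.84, 6.38 and 11.3 CPM. None of the 6 primordial germ cell markers did on the TMM scale. On total counts the numbers were 3 of 12, 2 of 20 (with Spata22) and 1 of 6 (Prdm1). Dnmt3l, the cofactor of the de novo DNA methyltransferases, went up, down and up again, at 0.760, 5.83, 2.01 and 21.2 CPM. These genes were picked out after their values were seen.

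**Figure D3:**
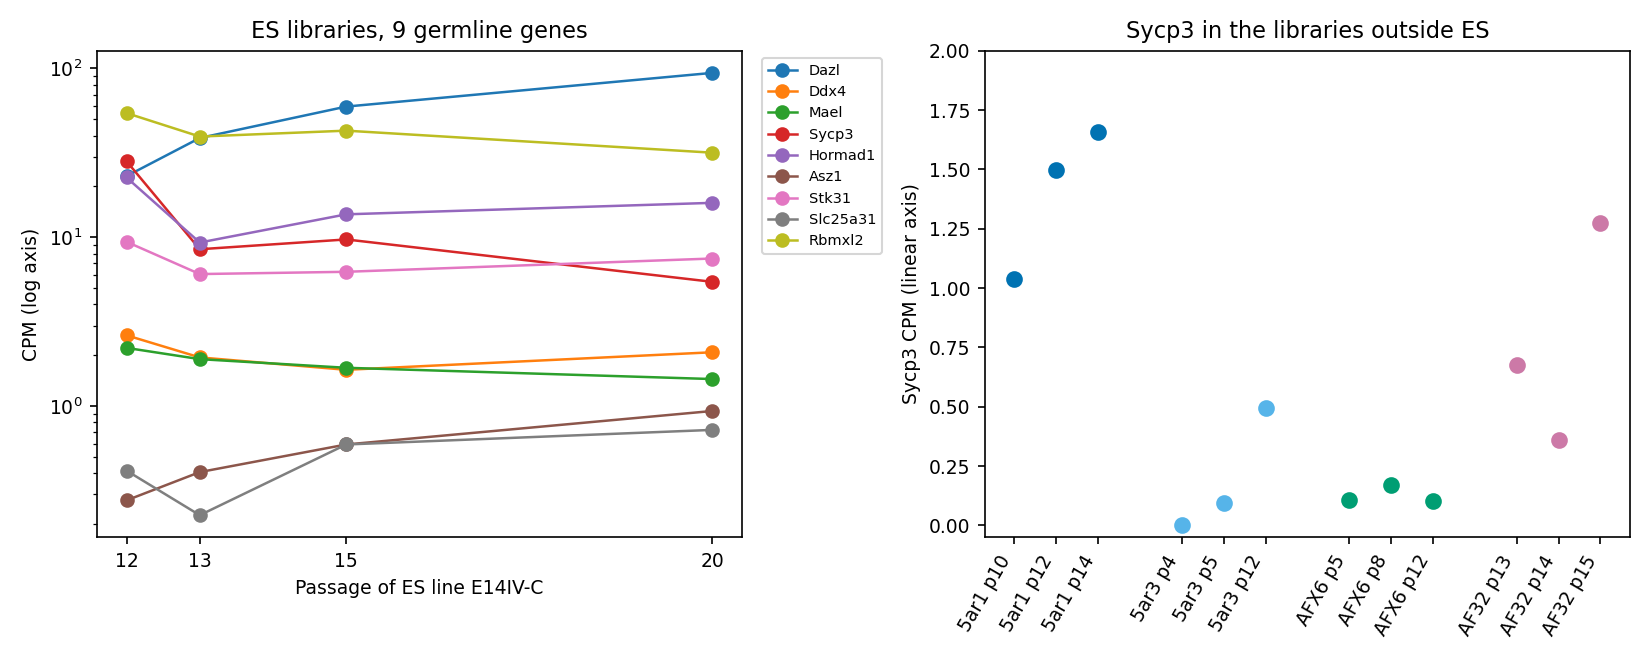
Left, CPM of 9 germline genes (Tex101 left out) against passage of the ES line, on a log axis, with 1 library per passage; Dazl climbs from 23.0 to 94.1 CPM and Sycp3 drops from 28.2 to 5.44 CPM. Right, CPM of Sycp3 in each library outside ES on a linear axis, ordered by line and passage, where all 3 libraries of line 5ar1 lie above all 3 of line 5ar3.

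Between the groups outside ES, no germline gene was called. Of 7 tested genes, 0 differed between FS and AFX EpiSCs by the edgeR test, where 5.00% of all genes did; 2 had an unadjusted p under 0.05. FS and AF EpiSCs gave 0 of 7 against 16.6% of all genes, with 0 at an unadjusted p under 0.05. AFX and AF EpiSCs gave 0 against 4.26%, with 1 unadjusted. The FS lines 5ar1 and 5ar3 gave 0 against 3.88%, with 2 unadjusted. DESeq2 called 1, Sycp3, between the FS lines. Apart from Sycp3 and Ddx4, the germline genes held 27 counts together over the 12 libraries outside ES. For most of them a call there was hardly possible, so these counts of calls do not show that the groups are alike.

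Sycp3 was the gene whose calls outside ES changed with the setting. It was higher in line 5ar1 (1.40 ± 0.32 CPM) than in line 5ar3 (0.196 ± 0.263 CPM; SD, n = 3 each) by 2.78 on the log2 scale (SE 0.81), with no overlap of libraries, as for 8.35% of tested genes in this direction, and an edgeR adjusted p of 0.0657. It passed the threshold with DESeq2 (adjusted p 0.00603), and in edgeR without the line 5ar1 library at passage 10 (0.048), the line 5ar3 library at passage 12 (0.02) or the passage 12 ES library (0.0309). From FS to AFX EpiSCs the log2 difference was 2.64 (SE 1.04, edgeR adjusted p 0.159), and 3.43 with only line 5ar1 (adjusted p 0.0282). AFX EpiSCs were lower than AF EpiSCs by -2.56 on the log2 scale (SE 1.13, edgeR adjusted p 0.237), and the adjusted p was 0.0258 when only these groups were fitted. Ddx4 had the opposite sign between the FS lines, -3.23 on the log2 scale (SE 1.07, edgeR adjusted p 0.0869). Line 5ar1 was sampled at passages 10, 12 and 14 and line 5ar3 at passages 4, 5 and 12. Line and passage therefore cannot be told apart for Sycp3 or Ddx4. At the shared passage 12, lines 5ar1 and 5ar3 held 47 and 13 counts of Sycp3 and 2 and 3 of Ddx4, without replicates.

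Wider sets of germline genes held genes higher and genes lower in ES. Of 18 other piRNA and nuage genes, 12 were tested, and 7 were higher in ES than in FS, 4 lower and 1 not called. The median log2 difference was 3.97, against -0.04 over all tested genes. Against AF EpiSCs the counts were 8, 4 and 0, and against AFX EpiSCs 7, 4 and 1. Over all tested genes, 29.9% were higher in ES than in FS and 32.9% lower. The shares were 27.0% and 29.7% against AF EpiSCs, and 26.2% and 28.5% against AFX EpiSCs. The 4 lower genes of this list were thus near the share of all genes. The same shares are the background of the lists that follow. Fkbp6 averaged 17.0 ± 14.3 CPM over the ES libraries (SD, n = 4) against 0.0117 ± 0.0182 over FS (n = 6), and Gpat2 at 29.3 ± 10.02 and 0.125 ± 0.167. Rnf17, a Tudor protein of germ granules, was the most abundant of those written out, at 92.6 ± 25.2 CPM in ES and 0.585 ± 0.252 in FS. The 4 lower genes were Tdrkh, Tdrd7, Tdrd5 and Exd1, named because they are few. Tdrkh, a Tudor protein on mitochondria that trims piRNAs with its partners, was at 0.191 ± 0.060 CPM in ES and 24.3 ± 10.4 in FS, a log2 difference of -7.01 (SE 0.48, edgeR adjusted p 1.12e-09).

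Of 26 other meiotic chromosome genes, 20 were tested. Against FS, 13 were higher in ES, 4 lower and 3 not called, with a median log2 difference of 2.24. Against AF EpiSCs the counts were 13, 4 and 3, and against AFX EpiSCs 13, 3 and 4. Syce1, of the central element of the synaptonemal complex, averaged 7.97 ± 1.83 CPM over the ES libraries (SD, n = 4), and Tex11, an X-linked meiotic recombination gene, at 7.14 ± 1.25. Both had no count in any of the 12 libraries outside ES. Stra8, the retinoic acid target that opens meiosis, was at 4.53 ± 1.92 CPM in ES and at 0 in FS. Meioc, which holds cells in meiotic prophase, was at 10.96 ± 2.11 CPM in ES and 0.0333 ± 0.0416 in FS. The 4 genes lower in ES than in FS were Msh5, Meiob, Terb1 and Prdm9, and Msh5, a mismatch repair relative that stabilises crossovers, was at 0.912 ± 0.527 against 8.57 ± 3.75 CPM.

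Genes of the end of the germ line were near absent. None of 7 late spermatid genes in the table passed the filter, and their sum was 0 to 0.136 CPM in ES. Of 10 oocyte genes only Zp3, of the egg coat, passed, with 4.42 ± 0.90 CPM over the ES libraries (SD, n = 4) against 0.0456 ± 0.0506 over FS (n = 6), a log2 difference of 6.38 (SE 0.51, edgeR adjusted p 6.68e-09).

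**Figure D4:**
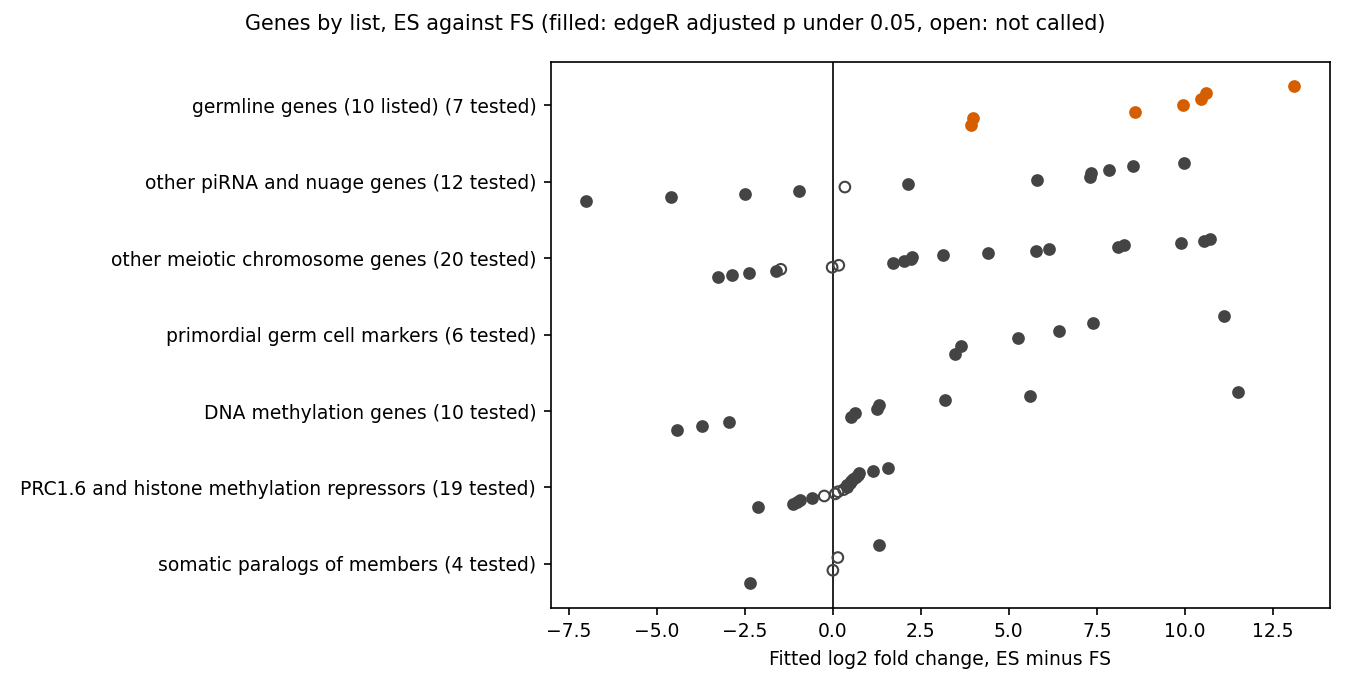
Fitted log2 difference, ES minus FS, of each tested gene, with 1 row per gene list and filled points for an edgeR adjusted p under 0.05. The 7 tested germline genes all lie at 3.93 or more, while piRNA, meiotic and DNA methylation genes lie on both sides of 0; values of genes at 0 in FS depend on the prior count.

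Markers of primordial germ cells were also higher in ES, and some were called between the other groups. Most germline genes had too few counts there for a call, so the lists are not compared on this. All 6 (Kit, Tfap2c, Prdm1, Dppa3, Dnd1 and Nanos3) were higher in ES than in FS, AF EpiSCs and AFX EpiSCs. Their sum was 411.7 to 579.6 CPM in ES, 4.64 to 16.03 in FS, 30.9 to 75.1 in AF EpiSCs and 7.66 to 26.3 in AFX EpiSCs. Dppa3 was at 0 in AF EpiSCs. Outside ES, 2 of the 6 were called in each comparison of groups (FS and AFX, FS and AF, AFX and AF EpiSCs). The shares of all tested genes called there were 5.00%, 16.6% and 4.26%. Prdm1 was at 8.65 ± 6.06 CPM in AF EpiSCs and 0.140 ± 0.129 in FS (SD, n = 3 and 6). Dppa3, which guards against maintenance methylation, had an ES mean of 24.2 ± 10.8 CPM. Several of these genes are also known from naive ES cells, and their part in the germline result was not tested. Of 9 listed markers of 2-cell-like cells, 7 were in the table and none passed the filter, with a sum of 0.510 to 1.08 CPM in ES and at most 0.106 elsewhere; Tcstv3 was at 0 in ES.

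The DNA methylation genes changed in both directions. Of 10 genes, 7 were higher in ES and 3 lower, against each of the other groups. The lower ones were Dnmt3a and Dnmt3b, which methylate DNA de novo, and Tet3, which oxidises methylcytosine. The higher ones were Dnmt1, Dnmt3l, Uhrf1, Hells, Tet1, Tet2 and Prdm14. Of all tested genes, 26.2% to 29.9% were higher in ES and 28.5% to 32.9% lower in these comparisons. Dnmt3l was at 7.44 ± 9.41 CPM in ES and 0.153 ± 0.104 in FS, a log2 difference of 5.60 (SE 0.77, edgeR adjusted p 5.9e-06). Dnmt3b was at 60.7 ± 23.0 CPM in ES (SD, n = 4), 1308 ± 527 in FS (n = 6), 787 ± 134 in AF EpiSCs and 902 ± 117 in AFX EpiSCs (n = 3 each). Dnmt3a was at 11.5 ± 2.21 CPM in ES and 151 ± 25.3 in FS. Prdm14, a repressor of the de novo enzymes, was at 49.6 ± 6.64 CPM in ES and 0.0140 ± 0.0219 in FS, a log2 difference of 11.50 (SE 0.37, edgeR adjusted p 1.39e-13).

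Genes of PRC1.6 and of histone methylation repressors differed by less. Of 19, all tested, 9 were higher in ES than in FS, 5 lower and 5 not called, with a median log2 difference of 0.41. Against AF EpiSCs the counts were 11, 4 and 4, and against AFX EpiSCs 8, 3 and 8. Of all tested genes, 29.9% were higher in ES than in FS and 32.9% lower. Wdr5, an adaptor shared by several chromatin complexes, was at 370 ± 54.0 CPM in ES and 125 ± 23.2 in FS, and the H3K9 methyltransferase gene Setdb1 at 249 ± 60.2 and 112 ± 17.4 (SD, n = 4 and 6). Yaf2, a PRC1 subunit, was lower in ES, at 3.66 ± 1.62 against 15.9 ± 1.68 CPM. E2f6 was at 17.8 ± 1.67 CPM in ES and 43.0 ± 3.83 in AF EpiSCs. Its log2 difference from FS was -0.93 (SE 0.16, edgeR adjusted p 8.59e-05). The genes of the subunits that bind E-boxes went the other way, with ES above FS. The log2 difference was 0.67 for Mga (SE 0.11, edgeR adjusted p 2.96e-05) and 0.72 for Max (SE 0.12, edgeR adjusted p 7.96e-05). Mga and Max were also called higher in ES than in AF and AFX EpiSCs, and were picked out after their values were seen.

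Of the 4 somatic relatives of the germline genes, 1 was higher in ES than in FS, 1 lower and 2 not called. Rbmx, the widely expressed relative of Rbmxl2, was lower in ES, at 22.2 ± 3.51 CPM (SD, n = 4) against 113 ± 9.62 in FS (n = 6), a log2 difference of -2.35 (SE 0.14, edgeR adjusted p 3.02e-10). Of the widely expressed ADP/ATP carriers, Slc25a4 was higher in ES, at 252 ± 68.8 against 101 ± 15.6 CPM, and Slc25a5 was at 259 ± 22.9 against 259 ± 102 CPM and was not called. Rbmxl1 was not called either, at 73.3 ± 8.27 and 66.4 ± 11.4 CPM.

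The genes whose pattern lay nearest to the mean log2 CPM of the 7 tested germline genes, over the 16 libraries, were Rpl39l, Tex11, Spic, 1700097N02Rik and Klk1, with Pearson correlations of 0.9988, 0.9986, 0.9985, 0.9982 and 0.9982. These values describe a step between ES and the other libraries, which all share. Among the 7 themselves, the correlation with their own mean ran from 0.998 for Mael to 0.916 for Ddx4 and 0.858 for Sycp3, the 2 tested genes with the most counts outside ES.

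In the GENCODE annotation (GRCm38) all 10 are protein-coding genes. Dazl (ENSMUSG00000010592) lies at chr17:50279395-50293636 and Ddx4 (ENSMUSG00000021758) at chr13:112598333-112652475, both on the minus strand. Sycp3 (ENSMUSG00000020059) lies at chr10:88459569-88473236 and Hormad1 (ENSMUSG00000028109) at chr3:95559677-95587671, both on the plus strand. Rbmxl2 (ENSMUSG00000073894), at chr7:107209445-107210916 on the plus strand, and Mael (ENSMUSG00000040629), at chr1:166201201-166238747 on the minus strand, complete the set whose promoters are shown.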

How the data were processed

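RNA was sequenced from 16 cultures of mouse pluripotent cells. Per the labels' protocols, cells were lysed in Trizol, a column kit gave the RNA, and the library kit was directional. Per the submitters' processing notes, the tools were Trim Galore, TopHat2 2.1.0 and featureCounts 1.5.0 with the build mm10. The annotation release and strand setting are not given in the sources used here. The authors deposited 1 table of raw counts, by gene, with 34042 rows, of which 2003 were 0 in all 16 libraries; 6 columns matched no label and were not used. Total counts were 22069338 to 33290250 per library, and intervals and floors cover counting error only. No pair of libraries of a line agreed within sampling noise (lowest chi-square per degree of freedom 8.40).

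Groups were the culture conditions in the labels. The counts went into edgeR 4.0.16, run in R 4.3.3 (filterByExpr with a minimum count of 10, TMM, robust quasi-likelihood, 1 mean per group, or per line for the FS lines, over all 16 libraries). A gene was called where its p, adjusted by Benjamini-Hochberg over the 18555 tested genes, was under 0.05. Ratios are pooled CPM with exact 95% intervals, and a group at 0 was set to 3 counts over the group. Correlations used log2 CPM with a prior count of 2. GENCODE mouse release 21 gave positions and exon lengths, with 33860 of 34042 identifiers found and 32492 with the same symbol. RefSeq gave promoters for 10 of 10 genes. Figures used matplotlib 3.10.9. The procedure was tested on simulated data with known changes in ES. Of changes of log2 1, 40.8% were recovered against FS, 31.6% against AF EpiSCs and 29.6% against AFX EpiSCs. For changes of log2 2 the shares were 87.9%, 78.8% and 81.8%. False calls were 5.93%, 5.22% and 3.51% of all calls, against the threshold of 0.05.

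The 10 genes and all lists were chosen with earlier results of these data known. The rule for named genes took all 10, at most the 4 called genes with the largest change per list and comparison, and the 5 genes nearest in pattern; others are said to be chosen after their values were seen. Alternatives were DESeq2 1.42.0 size factors and Wald test, total counts, no filter, a mean of at least 1 CPM, each library left out, a test against a log2 change of 1, only the groups compared and single FS lines. ES means and passage order under other scalings were added after seeing the data, as were the checks of overlapping genes and of the 155 ES-only genes.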

Additional observations from a re-analysis of the deposited data

Results flagged for a closer look

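Hormad1 in FS was set apart by 1 library. The line 5ar3 library at passage 12 was at 0.0381 CPM, from a single count, and the other 5 FS libraries were at 0. The whole range of the group is that 1 count, so the gap rule is met by any single count and says nothing more.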

How the results depend on the processing

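No paired analysis was possible because replicate numbers follow accession order and no label ties libraries across groups. Of the recomputed log2 differences of single germline genes, 1124 kept their call or lack of one, and 6 gained a call, all of them Sycp3. Of the differences called in the main analysis, 0 reversed or lost the call. Direction was not compared for differences that were not called. Testing against a log2 change of 1 lowered the genes called to 5810 (ES and FS), 5275 (ES and AF EpiSCs), 5064 (ES and AFX EpiSCs), 158 (FS and AFX EpiSCs), 682 (FS and AF EpiSCs), 102 (AFX and AF EpiSCs) and 128 (FS lines), from 11645, 10520, 10150, 927, 3089, 791 and 720. The DESeq2 Wald test gave 1640 for FS and AFX EpiSCs, 1392 for AFX and AF EpiSCs and 1255 for the FS lines. Fitting only the groups compared gave 557, 2276 and 179 for the same 3 comparisons, and only line 5ar3 gave 1690 for FS and AFX EpiSCs. The germline genes called moved from 0 to 1, Sycp3, between the FS lines with DESeq2, between AFX and AF EpiSCs with only those groups fitted, and between FS and AFX EpiSCs with only line 5ar1. The cause was not tested.

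Leaving out each library in turn gave 10793 to 11901 genes for ES and FS, 9471 to 10797 for ES and AF EpiSCs, 8994 to 10402 for ES and AFX EpiSCs, 380 to 1221 for FS and AFX EpiSCs, 1799 to 3620 for FS and AF EpiSCs, 351 to 981 for AFX and AF EpiSCs and 289 to 1567 for the FS lines. The lowest values came without AFX passage 8, AF passage 13, AFX passage 5 and 5ar1 passage 14, in the last 4 comparisons, and the highest for the FS lines without 5ar1 passage 10. The germline genes called stayed at 7 to 9 in the ES comparisons, 0 to 1 between the FS lines and 0 to 0 in the others; 9 were called without any AF or AFX library, where the smaller group let 2 more pass the filter, and 5 with a mean of at least 1 CPM, where 2 were not tested. Low counts limit Asz1, Slc25a31 and Tex101, and all values outside ES.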
